A study of Mus musculus with 15 samples.

Results

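The genes described here encode matrix metalloproteinases (MMPs) and tissue inhibitors of metalloproteinases (TIMPs). Their 10 members, Mmp2, Mmp3, Mmp9, Mmp12, Mmp13, Mmp14, Timp1, Timp2, Timp3 and Timp4, were listed by name, with earlier results of these data known. They were found by gene symbol, 10 of 10, among 22180 genes measured. Each was measured by 1 probe set that carried no other symbol. The arrays came from carotid arteries of female C57Bl/6J mice aged 21 to 22 weeks, taken 5 days after the left common carotid had been tied off, a procedure that stops flow and lets a neointima form. There were 4 groups: Has3-deficient ligated arteries (n = 3, numbered 3, 5 and 6 in the labels), wildtype ligated arteries (n = 4), Has3-deficient non-ligated arteries (n = 4) and wildtype non-ligated arteries (n = 4), each of the last 3 numbered 1 to 4. Has3 is one of the synthases that make hyaluronan, a large sugar polymer of the extracellular matrix. The labels do not say how the Has3 allele was made, whether the non-ligated arteries came from the operated mice, or whether each array of a group stands for its own mouse. The p-values below therefore measure the spread between arrays, which may be technical. Per the labels, wound tissue that adhered to the vessel was removed, and 100 ng of total RNA was labelled.

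MMPs are zinc-dependent endopeptidases that are made as inactive proenzymes and cut collagens, elastin, proteoglycans and many non-matrix proteins. TIMPs bind the active site of MMPs and block them, and some also bind proenzymes or inhibit related proteases of the ADAM family. In an injured artery these enzymes are known for opening the basement membrane around smooth muscle cells, for letting leukocytes through the wall and for remodelling the adventitia.

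Values are on the log2 scale, relative to the median of the same gene over the 15 arrays, and are listed in the order of the array numbers. A value of 1 is therefore a level of 1 log2 unit above that median, and the level of one gene cannot be set against that of another. The Has3 probe set was at -0.23, -0.01 and 0.10 in Has3-deficient ligated arteries, against -0.08, 0.13, 0.58 and 0.00 in wildtype ligated arteries. The difference was -0.20 (95% interval -0.54 to 0.13), and in non-ligated arteries it was 0.09 (-0.22 to 0.40). Has3 was thus not lower in the arrays labelled Has3-deficient beyond their spread. Where the probe set lies relative to the altered part of Has3 is unknown here, so the genotypes follow the labels.

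Some arrays carried more RNA of other tissues. The mean of 11 measured fat markers reached 1.84 in Has3-deficient non-ligated array 4 and 1.71 in wildtype non-ligated array 1, and it lay between -1.35 and 0.56 in the other 13 arrays. The mean of 10 measured neuron and chromaffin markers reached 4.44 in Has3-deficient non-ligated array 3, and was above 1 in 3 other non-ligated arrays. Numbers of members that passed are therefore also given without these arrays.

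Promoter sequences from RefSeq (assembly GRCm38.p6) were matched by symbol for 8 of the 10 members, in 9 windows, since Mmp12 has 2 listed starts; Mmp2 and Mmp9 had none. Those of Mmp13, Mmp12 and Mmp3 are shown because these genes belong to one run of MMP genes on the chromosome and rose with ligation. That of Timp1, the inhibitor that rose with them, is shown for comparison. Each line gives the 150 bases before the listed start, 5′ to 3′, all on the plus strand. The positions are chr9:7272364-7272513 for Mmp13, chr9:7347224-7347373 for the downstream start of Mmp12, chr9:7445672-7445821 for Mmp3 and chrX:20870016-20870165 for Timp1. Capitals mark TGANTCA, the core of the site bound by the AP-1 transcription factors (Fos and Jun proteins), which are known to act on collagenase and stromelysin promoters. Of the 2 windows of Mmp12 the one shown holds these letters, and the upstream one, which is not shown, does not.
Mmp13: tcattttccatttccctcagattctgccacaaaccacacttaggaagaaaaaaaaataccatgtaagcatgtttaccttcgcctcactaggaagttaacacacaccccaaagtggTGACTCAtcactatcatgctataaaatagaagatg
Mmp12: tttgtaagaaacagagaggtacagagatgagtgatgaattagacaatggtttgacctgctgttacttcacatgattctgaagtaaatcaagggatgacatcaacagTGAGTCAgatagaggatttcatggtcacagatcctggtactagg
Mmp3: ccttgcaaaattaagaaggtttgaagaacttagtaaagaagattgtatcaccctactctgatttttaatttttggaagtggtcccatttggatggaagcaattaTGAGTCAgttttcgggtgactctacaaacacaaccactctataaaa
Timp1: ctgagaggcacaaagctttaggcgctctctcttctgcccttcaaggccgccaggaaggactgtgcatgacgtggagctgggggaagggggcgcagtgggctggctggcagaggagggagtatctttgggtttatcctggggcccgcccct

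The letters TGANTCA were searched in the 250 bases before each start, on both strands. They stood 35 to 29 bases before the start of Mmp13, 44 to 38 before the downstream start of Mmp12 and 46 to 40 before that of Mmp3, and in none of the other 6 windows of members. The windows without these letters include that of Mmp14, which also rose with ligation and is not shown. Of all 32851 windows of this length, 2217 (6.75%) held them. AGGAAG, the core of the PEA3 site of Ets factors, stood in 7 of the 9 windows and in 29.48% of all windows. TATAAA stood in those of Mmp13 and Mmp3 and in 12.37% of all windows. No match overlapped another. These matches describe letters in a window and not binding.

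Ligation moved all 10 members in wildtype arteries. Of them 7 rose and 3 fell at an adjusted p under 0.05 (limma, Benjamini-Hochberg over all 22180 genes), beside 13.2% of all genes higher and 14.6% lower. The 6 MMP genes and Timp1 rose, and Timp2, Timp3 and Timp4 fell. In Has3-deficient arteries 7 rose and 2 fell, beside 10.2% of all genes higher and 8.08% lower, and Timp2 did not pass. Because the members were chosen with earlier results of these data known, the shares of all genes do not test their number. The median change of the members was 2.07 log2 units in Has3-deficient arteries and 1.79 in wildtype arteries, beside medians over all genes of -0.03 in Has3-deficient and 0.0055 in wildtype arteries. Ligated and non-ligated arrays did not overlap for any of the 10 members in either genotype, as held for 26.3% of all genes in Has3-deficient and 30.0% in wildtype arteries. Without the arrays above 1 in fat markers 9 members passed in Has3-deficient arteries, with Timp2 gained and Timp4 lost, and 10 in wildtype arteries. The share of all genes that passed was not computed for such reduced fits. Without those above 1 in neuron markers, which leaves 1 Has3-deficient non-ligated array that is assumed to vary like the others, 8 passed in Has3-deficient and 10 in wildtype arteries. The two-sided exact permutation test gave p = 0.0571 for each member in Has3-deficient and p = 0.0286 in wildtype arteries, the smallest values that these group sizes allow. The arteries were measured in bulk, so more cells of a type and more RNA per cell cannot be told apart.

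**Figure D1:**
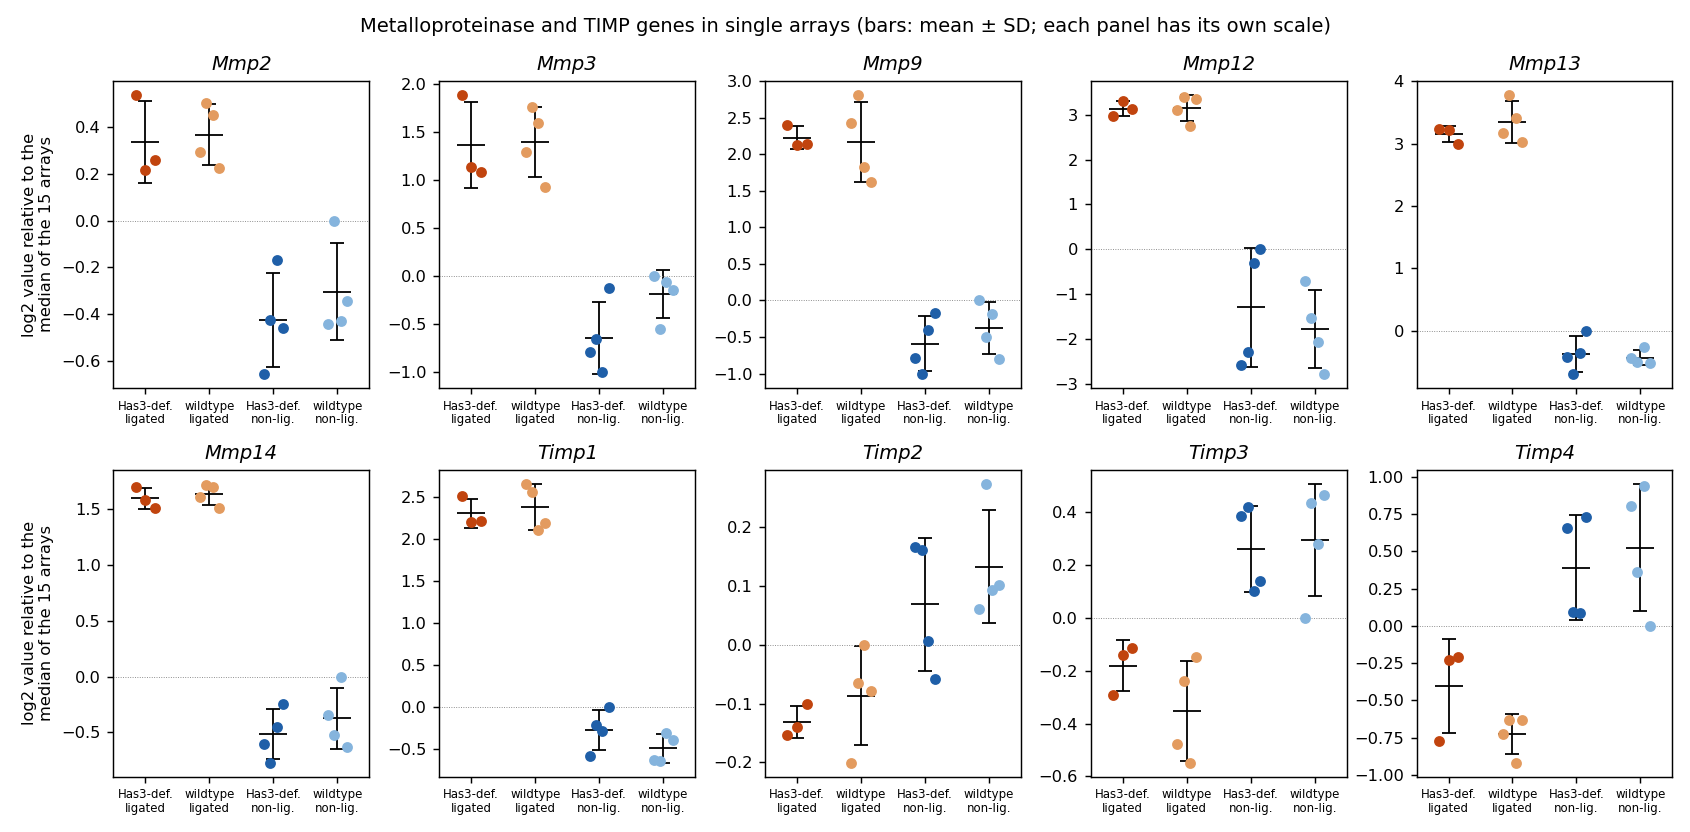
Log2 value of each of the 10 genes relative to its median over the 15 arrays, 1 point per array, for (left to right) Has3-deficient ligated, wildtype ligated, Has3-deficient non-ligated and wildtype non-ligated arteries; bars are mean ± SD and each panel has its own scale. Ligated points lie apart from non-ligated points of the same genotype in every panel, above them for the 6 MMP genes and Timp1 and below them for Timp2, Timp3 and Timp4.

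Mmp12 encodes macrophage elastase, which cuts elastin and is made mainly by macrophages. In Has3-deficient arteries it was at 2.99, 3.31 and 3.13 in ligated arrays, against -2.58, -2.30, -0.30 and 0.00 in non-ligated arrays. In wildtype arteries it was at 3.10, 3.40, 2.76 and 3.35 in ligated arrays, against -0.71, -1.53, -2.06 and -2.79 in non-ligated arrays. All ligated arrays lay close together and far above every non-ligated array, while the non-ligated arrays were widely spread. Mmp12 rose by 4.44 ± 0.58 (SE) log2 units in Has3-deficient arteries (21.7-fold, adjusted p = 8.34e-05) and by 4.93 ± 0.54 in wildtype arteries (30.4-fold, adjusted p = 9.75e-06). By size of rise it ranked 9 among all genes in Has3-deficient and 10 in wildtype arteries.

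The spread of Mmp12 between arrays was itself uneven. Its SD was 0.17 in Has3-deficient ligated and 0.29 in wildtype ligated arteries, and 1.33 in Has3-deficient non-ligated and 0.87 in wildtype non-ligated arteries. In both non-ligated groups 99.5% of all genes had a smaller SD. From high to low, Mmp12 ran through Has3-deficient arrays 4 and 3, wildtype arrays 1, 2 and 3, Has3-deficient arrays 2 and 1, and wildtype array 4. The first 4 of these were also the 4 highest of the 8 non-ligated arrays in the mean of the fat markers and in the mean of 14 macrophage markers. The fat means of these 4 were 0.38 to 1.84, and their macrophage means were -0.508 to -0.111, the lowest only just above the -0.509 of the next array. They were also the 4 lowest in the mean of 12 contractile smooth muscle markers, at -0.02 to 0.32, and held the 3 highest means of the neuron markers (1.80 to 4.44). In the other lists these 4 arrays were neither the 4 highest nor the 4 lowest. In the order above, their ranks from the highest were 1, 4, 3 and 7 in neutrophil markers. They were 6, 8, 2 and 1 in adventitial fibroblast markers, 6, 8, 4 and 3 in endothelial markers, and 1, 7, 5 and 2 in skeletal muscle markers. No link of Mmp12 to a list was tested. With the fat mean as a covariate the rise was 4.63 log2 units in Has3-deficient and 5.78 in wildtype arteries.

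**Figure D2:**
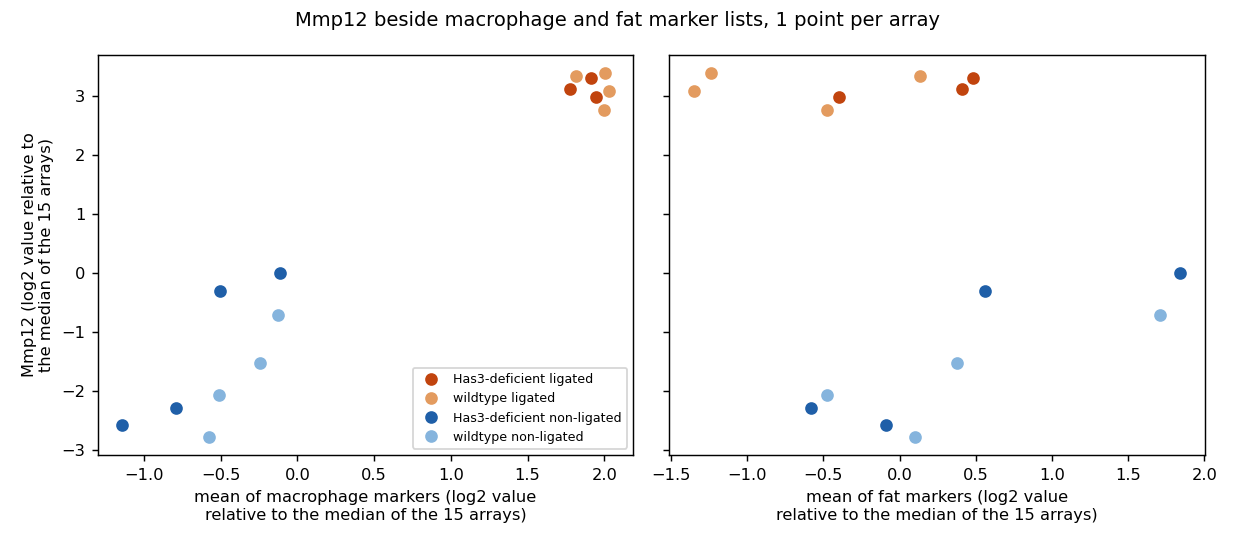
Mmp12 (vertical axis, log2 value relative to the median of the 15 arrays) against the mean of 14 macrophage markers (left) and of 11 fat markers (right) on the same scale, 1 point per array, coloured by group. The 7 ligated arrays cluster above 2.7 in Mmp12 and above 1.7 in macrophage markers, and the 8 non-ligated arrays run from -2.79 to 0.00 in Mmp12.

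Mmp13 encodes collagenase 3, the main interstitial collagenase of the mouse. Its values were 3.23, 3.22 and 3.00 in Has3-deficient ligated arrays, against -0.43, -0.70, -0.36 and 0.00 in non-ligated ones. Wildtype ligated arrays stood at 3.16, 3.78, 3.42 and 3.02, against -0.44, -0.51, -0.26 and -0.52 in non-ligated ones. Unlike those of Mmp12, the non-ligated values of Mmp13 were narrow, with an SD of 0.29 in Has3-deficient and 0.12 in wildtype arteries. Mmp13 rose by 3.52 ± 0.17 log2 units in Has3-deficient arteries (11.5-fold, adjusted p = 1.47e-08) and by 3.78 ± 0.16 in wildtype arteries (13.7-fold, adjusted p = 3.15e-09).

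Mmp9, or gelatinase B, degrades denatured and basement membrane collagen and is stored in neutrophil granules. It stood at 2.41, 2.12 and 2.14 in Has3-deficient ligated arrays, against -0.78, -1.01, -0.40 and -0.18 in non-ligated ones. In wildtype it stood at 2.42, 2.81, 1.83 and 1.62 in ligated arrays, against 0.00, -0.50, -0.18 and -0.81 in non-ligated ones. The wildtype ligated arrays spread most, with 2 above 2.4 and 2 below 1.9. Mmp9 rose by 2.82 ± 0.27 log2 units in Has3-deficient arteries (7.04-fold, adjusted p = 4.90e-06) and by 2.54 ± 0.25 in wildtype arteries (5.83-fold, adjusted p = 4.38e-06).

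Mmp14 encodes a membrane-anchored MMP that cuts collagen at the cell surface and, with TIMP2, activates the proenzyme of MMP2. Ligated arrays of Has3-deficient arteries had 1.70, 1.59 and 1.51, against -0.61, -0.77, -0.45 and -0.25 in non-ligated arrays. Ligated arrays of wildtype arteries had 1.61, 1.72, 1.70 and 1.51, against -0.34, -0.52, 0.00 and -0.63 in non-ligated arrays. The 7 ligated arrays lay within 0.213 log2 units of one another. Mmp14 rose by 2.12 ± 0.14 log2 units in Has3-deficient arteries (4.35-fold, adjusted p = 1.21e-07) and by 2.01 ± 0.13 in wildtype arteries (4.02-fold, adjusted p = 6.96e-08).

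Mmp3, stromelysin 1, cuts proteoglycans and activates other pro-MMPs. Has3-deficient ligated arrays gave 1.89, 1.14 and 1.09, against -0.79, -0.66, -1.002 and -0.12 in non-ligated arrays. Wildtype ligated arrays gave 1.29, 1.76, 1.59 and 0.93, against 0.00, -0.55, -0.06 and -0.14 in non-ligated arrays. One Has3-deficient ligated array, number 3, stood above the other 2 by more than 0.7. The rise was 2.01 ± 0.25 log2 units in Has3-deficient arteries (4.04-fold, adjusted p = 4.71e-05) and 1.58 ± 0.23 in wildtype arteries (2.99-fold, adjusted p = 1.17e-04).

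Mmp2, gelatinase A, is made by smooth muscle cells and fibroblasts of the resting artery and rose least among the 6 MMP genes. In Has3-deficient arteries it was at 0.54, 0.22 and 0.26 in ligated arrays, against -0.66, -0.43, -0.17 and -0.46 in non-ligated arrays. In wildtype arteries it was at 0.29, 0.50, 0.45 and 0.23 in ligated arrays, against -0.44, 0.00, -0.43 and -0.35 in non-ligated arrays. Mmp2 rose by 0.77 ± 0.13 log2 units in Has3-deficient arteries (1.70-fold, adjusted p = 7.72e-04) and by 0.67 ± 0.12 in wildtype arteries (1.595-fold, adjusted p = 6.69e-04). The 95% interval of its rise ended at 1.04 in Has3-deficient and 0.93 in wildtype arteries, below the lower ends for the other 5, of which the nearest were 1.48 in Has3-deficient and 1.09 in wildtype arteries, both of Mmp3.

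Timp1 encodes the inducible, secreted inhibitor of the family, which also binds the proenzyme of MMP9. It was at 2.50, 2.20 and 2.21 in Has3-deficient ligated arrays, against -0.58, -0.21, -0.28 and 0.00 in non-ligated arrays. It was at 2.65, 2.56, 2.11 and 2.19 in wildtype ligated arrays, against -0.63, -0.63, -0.30 and -0.39 in non-ligated arrays. Every ligated array lay more than 2 log2 units above every non-ligated array. Timp1 rose by 2.57 ± 0.16 log2 units in Has3-deficient arteries (5.94-fold, adjusted p = 6.24e-08) and by 2.86 ± 0.14 in wildtype arteries (7.28-fold, adjusted p = 9.91e-09).

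The other 3 inhibitors were lower in ligated arteries. Timp4, an inhibitor with a restricted tissue range that includes heart and fat, was at -0.77, -0.23 and -0.21 in Has3-deficient ligated arrays, against 0.66, 0.09, 0.08 and 0.73 in non-ligated arrays. In wildtype it was at -0.73, -0.63, -0.92 and -0.63 in ligated arrays, against 0.81, 0.36, 0.94 and 0.00 in non-ligated arrays. Timp4 fell by 0.79 ± 0.23 log2 units in Has3-deficient arteries (to 0.577 of the non-ligated level, adjusted p = 0.0254) and by 1.25 ± 0.21 in wildtype arteries (to 0.419, adjusted p = 4.01e-04). The call in Has3-deficient arteries was lost without ligated array 3 (-0.61, adjusted p = 0.137), without non-ligated array 1 (-0.71, adjusted p = 0.0705) or 4 (-0.68, adjusted p = 0.0634). It was also lost with only the arrays up to 1 in neuron markers, where 1 non-ligated array remained (-0.50, adjusted p = 0.366), and under quantile normalization (-1.02, adjusted p = 0.110). With the fat mean as a covariate Timp4 fell by 0.76 in Has3-deficient arteries (adjusted p = 0.0284) and by 1.09 in wildtype arteries (adjusted p = 0.00366).

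Timp3 encodes the inhibitor that is bound to the matrix and also blocks ADAM17, the protease that sheds tumour necrosis factor. Has3-deficient ligated arrays were at -0.29, -0.14 and -0.11, against 0.38, 0.42, 0.10 and 0.14 in non-ligated arrays. Wildtype ligated arrays were at -0.48, -0.24, -0.55 and -0.15, against 0.00, 0.43, 0.28 and 0.47 in non-ligated arrays. Timp3 fell by 0.44 ± 0.13 log2 units in Has3-deficient arteries (to 0.737 of the non-ligated level, adjusted p = 0.0258) and by 0.65 ± 0.12 in wildtype arteries (to 0.638, adjusted p = 7.30e-04). In Has3-deficient arteries it no longer passed without non-ligated array 1 (-0.40, adjusted p = 0.0694) or 2 (-0.39, adjusted p = 0.0676), or without ligated array 3 (-0.39, adjusted p = 0.112) or 5 (-0.46, adjusted p = 0.0590).

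Timp2, the inhibitor that takes part in the activation of pro-MMP2, moved least of the 10. It was at -0.15, -0.14 and -0.10 in Has3-deficient ligated arrays, against 0.17, 0.16, 0.01 and -0.06 in non-ligated arrays. It was at -0.20, -0.07, 0.00 and -0.08 in wildtype ligated arrays, against 0.06, 0.27, 0.09 and 0.10 in non-ligated arrays. The nearest ligated and non-ligated arrays were less than 0.07 apart in both genotypes. Its change was -0.20 ± 0.07 log2 units in Has3-deficient arteries, which did not pass (adjusted p = 0.0741), and -0.22 ± 0.07 in wildtype arteries, a fall to 0.859 (adjusted p = 0.0246). The wildtype call was lost with the replicate number as a block (adjusted p = 0.0598), without wildtype ligated array 1 (-0.18, adjusted p = 0.0793) and without wildtype non-ligated array 2 (-0.17, adjusted p = 0.0835). In Has3-deficient arteries Timp2 passed without non-ligated array 4 (-0.24, adjusted p = 0.0342).

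**Figure D3:**
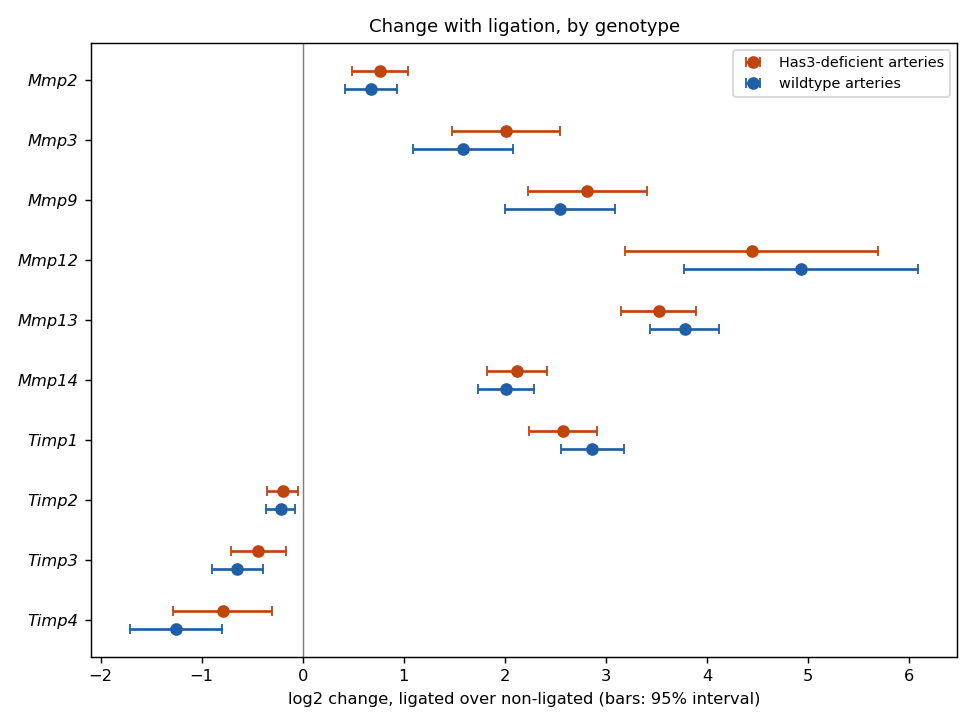
Log2 change with ligation (horizontal axis, ligated over non-ligated) of the 10 genes in Has3-deficient arteries and in wildtype arteries; points are the limma estimates and bars 95% intervals. The 6 MMP genes and Timp1 lie to the right of 0, Mmp12 farthest at 4.44 in Has3-deficient and 4.93 in wildtype arteries, and Timp2, Timp3 and Timp4 lie to the left.

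Timp1, Timp2, Timp3 and Timp4 each overlap another gene in the gene table. Timp1, Timp3 and Timp4 lie within Syn1, Syn3 and Syn2, which encode synapsins of neurons, and Timp2 overlaps Cep295nl. Syn3 changed by -0.84 ± 0.35 log2 units in Has3-deficient arteries (adjusted p = 0.125) and fell by 0.996 ± 0.33 in wildtype arteries (adjusted p = 0.0349). Syn2 changed by -1.78 ± 0.85 in Has3-deficient arteries (adjusted p = 0.185) and by -0.997 ± 0.79 in wildtype arteries (adjusted p = 0.421). In Has3-deficient non-ligated array 3, the array highest in neuron markers, Syn2 stood at 4.53 and Timp4 at 0.08. In the same array Syn3 stood at 1.96 and Timp3 at 0.10, and Syn1 at 2.96 and Timp1 at -0.28. The values of these 3 members there lay within the range of the other non-ligated arrays.

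The remaining members of the MMP family moved less uniformly. Of 16 measured (17 listed), 4 rose and 2 fell in Has3-deficient arteries, beside 10.2% of all genes higher and 8.08% lower. In wildtype arteries 5 rose and 3 fell, beside 13.2% of all genes higher and 14.6% lower. Their median change was -0.0046 log2 units in Has3-deficient and 0.05 in wildtype arteries, near that of all genes. Mmp8, the collagenase of neutrophil granules, rose by 3.03 ± 0.27 in Has3-deficient and 3.28 ± 0.25 in wildtype arteries. Mmp19, a secreted MMP found in many tissues, rose by 3.02 ± 0.21 in Has3-deficient and 2.80 ± 0.20 in wildtype arteries. Mmp25, a membrane-bound MMP of leukocytes, rose by 1.54 ± 0.13 in Has3-deficient and 1.38 ± 0.12 in wildtype arteries. Mmp27 rose by 0.70 ± 0.13 in Has3-deficient and 0.39 ± 0.12 in wildtype arteries. Mmp17, anchored in the membrane by a lipid, fell by 1.04 ± 0.24 in Has3-deficient and 0.99 ± 0.22 in wildtype arteries. Mmp16, which spans the membrane, fell by 0.47 ± 0.12 in Has3-deficient and 0.64 ± 0.11 in wildtype arteries.

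Mmp13, Mmp12 and Mmp3 belong to a run of 10 MMP genes on chromosome 9 with no other protein-coding gene between them in the gene table. All 10 were measured, and the rises were not spread evenly along the run. Mmp13, Mmp12, Mmp3, Mmp8 and Mmp27 rose in both genotypes. Mmp10, stromelysin 2, lies between Mmp1a and Mmp8 and changed by 0.27 ± 0.12 log2 units in Has3-deficient arteries (adjusted p = 0.140), and rose by 0.41 ± 0.11 in wildtype arteries (adjusted p = 0.0106). Mmp1b, next to Mmp12, changed by 0.05 ± 0.05 in Has3-deficient and 0.02 ± 0.04 in wildtype arteries. Mmp1a, a paralog of Mmp1b next to Mmp3, changed by 0.02 ± 0.05 in Has3-deficient and -0.02 ± 0.05 in wildtype arteries. Neither passed in either genotype, nor did Mmp20, an enzyme of tooth enamel, or Mmp7, matrilysin, at the end of the run.

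**Figure D4:**
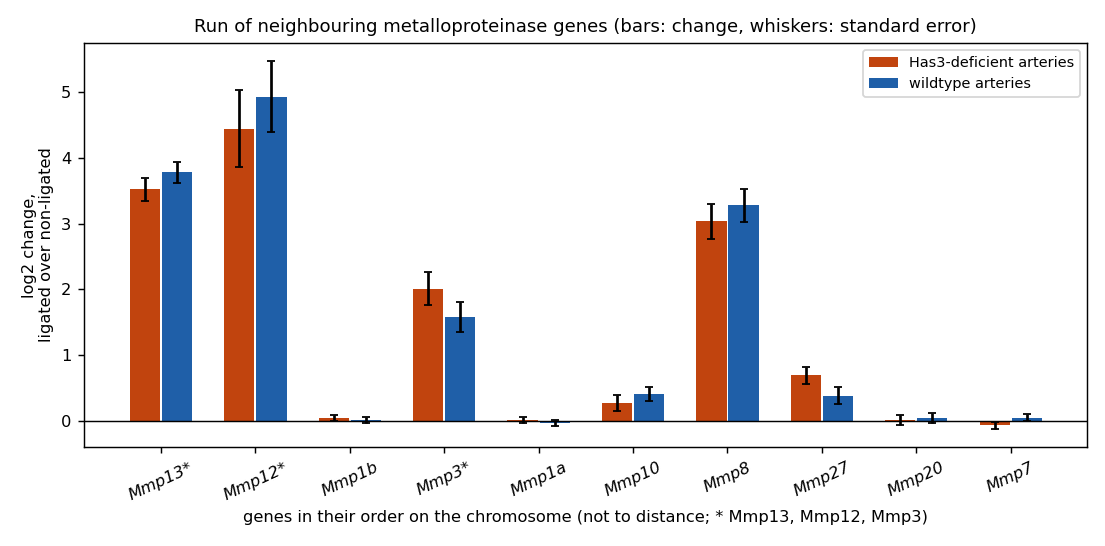
Log2 change with ligation (vertical axis, ligated over non-ligated) of 10 neighbouring MMP genes in their order on the chromosome, not to distance; bars are the limma estimates in Has3-deficient and wildtype arteries and whiskers their standard errors. Tall bars of Mmp13, Mmp12, Mmp3 and Mmp8 (1.58 to 4.93) alternate with bars near 0 for Mmp1b and Mmp1a, and Mmp20 and Mmp7 are near 0 too.

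Genes whose products activate, bind or clear MMPs were counted from a list of 26, of which 24 were measured. In each genotype 11 rose and 2 fell. Of all genes, 10.2% were higher and 8.08% lower in Has3-deficient arteries, and 13.2% higher and 14.6% lower in wildtype arteries. The median change of the list was 0.21 log2 units in Has3-deficient and 0.18 in wildtype arteries, beside -0.03 and 0.0055 over all genes. Thbs1, thrombospondin 1, which binds MMP2 and MMP9, rose by 2.85 ± 0.23 in Has3-deficient and 3.56 ± 0.22 in wildtype arteries. Lcn2, a neutrophil lipocalin whose human product forms a complex with MMP9, rose by 3.07 ± 0.33 in Has3-deficient and 3.49 ± 0.30 in wildtype arteries. Cd44, the hyaluronan receptor that docks MMP9 and MMP14 at the cell surface, rose by 2.63 ± 0.14 in Has3-deficient and 2.53 ± 0.13 in wildtype arteries. Both parts of the urokinase system on the list rose. Plau, the plasminogen activator urokinase, rose by 1.88 ± 0.14 in Has3-deficient and 1.52 ± 0.13 in wildtype arteries. Its receptor Plaur rose by 2.06 ± 0.18 in Has3-deficient and 2.20 ± 0.16 in wildtype arteries. Spock2, a testican proteoglycan, fell by 1.70 ± 0.42 in Has3-deficient arteries (adjusted p = 0.0106), and its change of -1.02 ± 0.39 in wildtype arteries did not pass (adjusted p = 0.0649). In non-ligated arteries Spock2 was 0.77 higher in Has3-deficient than in wildtype arrays, which did not pass (limma, adjusted p = 0.410). Has3-deficient non-ligated arrays 1, 3 and 4 were above 1 in neuron markers, whose median change with ligation was -1.59 in that genotype. Their part in the fall of Spock2 was not tested.

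Most markers of macrophages, and part of those of neutrophils, rose with ligation, as the MMP genes among the members and Timp1 did. Most markers of contractile smooth muscle fell, as Timp3 and Timp4 did in both genotypes. Markers of other cell types moved less uniformly. Of all genes, 10.2% were higher and 8.08% lower with ligation in Has3-deficient arteries, and 13.2% higher and 14.6% lower in wildtype arteries. Of 14 macrophage markers 13 rose in each genotype, and their mean per array ranged from 1.78 to 1.94 in Has3-deficient ligated and 1.81 to 2.03 in wildtype ligated arteries, against -1.14 to -0.11 in Has3-deficient non-ligated and -0.58 to -0.13 in wildtype non-ligated arteries. Of 12 neutrophil markers 7 rose in each genotype. Mpo, Elane, Ngp and Ltf passed in neither. Camp, which encodes a granule peptide, fell by 0.20 in Has3-deficient arteries (adjusted p = 0.0341) and did not pass in wildtype arteries. The mean of the 12 neutrophil markers ranged from 1.22 to 1.57 in Has3-deficient ligated and 1.03 to 1.67 in wildtype ligated arteries, against -0.59 to -0.09 in Has3-deficient non-ligated and -0.70 to -0.15 in wildtype non-ligated arteries. Of 12 contractile smooth muscle markers 12 fell in Has3-deficient and 11 in wildtype arteries. Their mean ranged from -0.55 to -0.37 in Has3-deficient ligated and -0.91 to -0.36 in wildtype ligated arteries, against -0.02 to 0.52 in Has3-deficient non-ligated and 0.19 to 0.52 in wildtype non-ligated arteries. Of 11 measured adventitial fibroblast markers 3 rose and 3 fell in Has3-deficient arteries, and 1 rose and 6 fell in wildtype arteries. Of 10 endothelial markers 3 rose and 3 fell in Has3-deficient arteries, and 3 rose and 4 fell in wildtype arteries. Of 11 measured fat markers 0 passed in Has3-deficient and 4 fell in wildtype arteries. Of 10 measured neuron and chromaffin markers 0 passed in either genotype, and of 10 skeletal muscle markers 1 fell in each. Since levels are lost, whether any defining marker is absent cannot be read from these values. The part of these cell types in the changes of the members was not tested.

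The genes with values most like those of 4 members were found by the smallest root mean square difference over the 15 arrays. Predicted and provisionally named genes, and those of microRNAs, small nucleolar RNAs, immunoglobulins and T cell receptors, were left out of this search. Closest to Mmp12 were Ccl3, a chemokine (0.493 log2 units), Arg1, an arginase (0.534), and Acod1, which makes itaconate in activated macrophages (0.547). Closest to Mmp13 were Olr1, a receptor for oxidised lipoprotein (0.195), Csf2rb2, a cytokine receptor subunit (0.245), and Tlr13, a receptor for bacterial RNA (0.305). Closest to Timp1 were Tnc, the matrix protein tenascin C (0.185), Nlrp3, an inflammasome sensor (0.207), and Rnf149, a ubiquitin ligase (0.216). Closest to Timp4 were Nexn, an actin-binding protein of muscle (0.232), Ccn3, a matricellular protein (0.236), and Limch1, a regulator of actomyosin (0.250).

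The genotypes were compared to ask whether Has3 deficiency altered these genes at rest or after ligation. None of the 10 passed in ligated arteries, beside 0% of all genes, and none had an unadjusted p under 0.05, beside 910 of all 22180 genes (limma). In non-ligated arteries none passed either, beside 0.0857% of all genes. There too none had an unadjusted p under 0.05, beside 2979 of all 22180 genes. With only 10 members, counts of 0 do not set them apart from all genes. The arrays of the genotypes overlapped for every member in both artery states; arrays did not overlap for 6.90% of all genes in ligated and 6.22% in non-ligated arteries. The lowest two-sided exact permutation p among the members was 0.2286 in ligated arteries (Timp4) and 0.0857 in non-ligated arteries (Mmp3).

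In ligated arteries the difference between genotypes was bounded unevenly across the members. For Timp2 it was -0.05 log2 units (95% interval -0.20 to 0.11), for Mmp2 -0.03 (-0.31 to 0.25), for Mmp14 -0.03 (-0.33 to 0.27) and for Timp1 -0.07 (-0.41 to 0.26). For Timp3 it was 0.17 (-0.10 to 0.44). The intervals of Mmp13 (-0.20, -0.57 to 0.17), Mmp3 (-0.02, -0.56 to 0.51), Mmp9 (0.05, -0.54 to 0.64) and Timp4 (0.32, -0.16 to 0.81) reached past 0.5 in size. That of Mmp12 was widest, from -1.26 to 1.24 around -0.01, and held differences of 2-fold in either direction. Its width rests on a spread that all 4 groups share. The SD of Mmp12 was 0.17 in Has3-deficient and 0.29 in wildtype ligated arteries. In non-ligated arteries it was 1.33 in Has3-deficient and 0.87 in wildtype. Fitted on the 2 ligated groups alone, the difference of -0.01 had an SE of 0.15 in place of 0.58. With the fat mean as a covariate the difference in Mmp12 was -0.67 (adjusted p = 0.939).

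In non-ligated arteries Mmp3 averaged -0.64 ± 0.38 in Has3-deficient and -0.19 ± 0.25 in wildtype arteries (SD, n = 4 each). The difference of -0.46 (95% interval -0.95 to 0.04) did not pass (limma, adjusted p = 0.414), and 1 Has3-deficient array, at -0.12, lay among the wildtype arrays. Mmp12 averaged -1.30 ± 1.33 in Has3-deficient and -1.77 ± 0.87 in wildtype arteries (SD, n = 4 each), a difference of 0.48 (-0.68 to 1.64). Single arrays moved it widely, to 0.05 without Has3-deficient array 4, 0.15 without Has3-deficient array 3, 0.14 without wildtype array 4, 0.81 without Has3-deficient array 2, 0.83 without wildtype array 1 and 0.91 without Has3-deficient array 1. For Timp1 the difference was 0.22 (-0.09 to 0.53), for Mmp9 -0.22 (-0.77 to 0.33), for Mmp14 -0.14 (-0.42 to 0.13) and for Timp4 -0.14 (-0.59 to 0.32). For Mmp2, Mmp13, Timp2 and Timp3 it lay between -0.12 and 0.06.

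**Figure D5:**
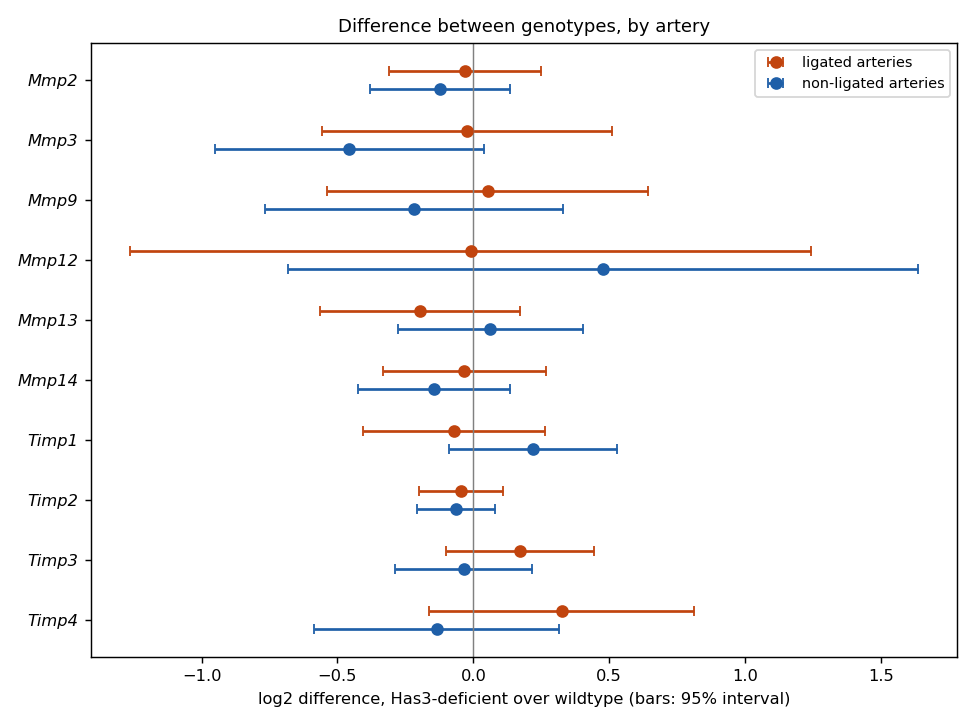
Log2 difference between genotypes (horizontal axis, Has3-deficient over wildtype) of the 10 genes in ligated and in non-ligated arteries; points are the limma estimates and bars 95% intervals. Every interval includes 0, and those of Mmp12 are widest, from -1.26 to 1.24 in ligated and from -0.68 to 1.64 in non-ligated arteries. Each interval uses a spread of the gene that all 4 groups share.

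Whether the ligation response itself differed between genotypes was tested as an interaction. None of the 10 members passed, beside 0% of all genes, and none had an unadjusted p under 0.05, beside 1802 of all 22180 genes (limma). With only 10 members, this too does not set them apart from all genes. The members' adjusted p ran from 0.734 to 0.970, and the median difference of the responses was 0.10 log2 units. For Mmp12 the response was 0.49 ± 0.79 lower in Has3-deficient than in wildtype arteries (difference -0.49, 95% interval -2.19 to 1.22). It was -0.06 without Has3-deficient non-ligated array 4, -0.16 without Has3-deficient non-ligated array 3 and -0.15 without wildtype non-ligated array 4. It was -0.92 without Has3-deficient non-ligated array 1, -0.82 without Has3-deficient non-ligated array 2 and -0.84 without wildtype non-ligated array 1, and -1.14 with the fat mean as a covariate (adjusted p = 0.697). For Timp4 the response differed by 0.46 ± 0.31 (-0.21 to 1.13), the fall being smaller in Has3-deficient arteries, and for Mmp3 by 0.43 ± 0.34 (-0.29 to 1.16). For Timp1 the difference was -0.29 ± 0.21 (-0.75 to 0.16) and for Mmp13 -0.26 ± 0.23 (-0.76 to 0.24). The interactions share all arrays with the comparisons above and are not independent of them.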

How the data were processed

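Total RNA of carotid arteries was hybridised to 15 arrays. The deposited table holds log2 values, which the authors had centred on each probe set's median over the arrays (every row median is 0); their base is taken as 2 from their range. How the arrays were normalized, and with which software, is not given in the sources used here. Of 33793 probe sets 23521 carried 1 symbol in the platform annotation, 1814 several and 8458 none; the mean of probe sets per symbol gave 22180 genes (1082 had several). Array medians lay between 0 and 0.0129, and 0 pairs of arrays were identical. The number of arrays limits the precision.

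A linear model of all 4 groups was fitted to each gene (limma 3.58.1, R 4.3.3) and its variances were moderated by empirical Bayes, with 11 residual degrees of freedom and 2.69 from the prior. P-values were adjusted by Benjamini-Hochberg over all genes and passed under 0.05; intervals are at 95%. Single values were also tested by exact permutation. Members, lists and tests were chosen with earlier results of these data known. All 10 members and Has3 are named, with up to 6 genes that passed per related list, by size of the larger change, and 3 genes closest to Mmp12, Mmp13, Timp1 and Timp4. Mmp1a, Mmp1b, Mmp7, Mmp10 and Mmp20 are named as neighbours, and Syn1, Syn2, Syn3 and Cep295nl as overlapping genes, outside that rule. Camp, Mpo, Elane, Ngp and Ltf were named after their values were seen. Alternatives were quantile normalization, a common array median, array weights, a robust prior, the probe set with the largest spread, only the groups compared, a replicate block, fat or neuron marker means as covariates, and leaving out each array in turn. Fits with only the arrays up to a marker mean of 1 were added after seeing the data. Gene order and promoters came from RefSeq tables (GRCm38.p6).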

Additional observations from a re-analysis of the deposited data

How the results depend on the processing

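The members' counts stayed within 1.5 times under all alternatives: 9 to 10 passed with ligation in wildtype arteries, 7 to 10 in Has3-deficient arteries, and 0 for genotype and interaction. The shares of all genes under these alternatives were not computed, and an equal count need not mean the same members. The 6 MMP genes and Timp1 kept direction and call in every alternative of both ligation comparisons. Quantile normalization was applied to the values already centred on each probe set's median, and gave all arrays the same distribution of these deviations. With it the rises were smaller, at 3.49 for Mmp12, 2.84 for Mmp13 and 2.01 for Timp1 in Has3-deficient arteries. In wildtype arteries they were 3.97, 3.06 and 2.28 for these genes. The cause was not tested. Timp2 passed in Has3-deficient arteries under quantile normalization (adjusted p = 0.0479), array weights (0.0244) and with only arrays up to 1 in fat (0.0378) or neuron markers (0.0430). There Timp4 did not pass with only the 2 groups compared (0.0538) or only the arrays low in fat markers (0.0623), nor Timp3 with only those low in neuron markers (0.0542). Under the replicate block 9 members passed in wildtype arteries, without Timp2, and 0 for genotype in non-ligated arteries. Deviations from the group means over all genes were correlated between arrays. Between wildtype ligated and non-ligated arrays, same-numbered ones correlated at 0.028 to 0.164, not all over 0.1. Differently numbered ones there correlated at -0.208 to 0.121. Between Has3-deficient and wildtype non-ligated arrays, same-numbered ones correlated at -0.401 to -0.235 and differently numbered ones at -0.308 to 0.556. Whether the numbers pair the samples is not known. Has3-deficient ligated arteries share only number 3 with the others and got no such fit.

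Signs turned only in comparisons without a call. For genotype in ligated arteries quantile normalization gave Mmp2 0.011, Mmp3 0.041, Mmp12 0.113, Mmp14 0.048 and Timp1 0.032, and the neuron mean as a covariate gave Mmp3 0.012. For genotype in non-ligated arteries that covariate gave Mmp12 -0.028, and the arrays low in fat markers gave Mmp13 -0.063. Those low in neuron markers gave Mmp12 -0.445, Mmp13 -0.287, Timp2 0.076 and Timp3 0.169 there, and interactions of -0.010 for Mmp2, 0.435 for Mmp12, 0.0905 for Mmp13 and -0.121 for Timp2. Array weights gave a Timp2 interaction of -0.011. Leaving out each array in turn, genotype in ligated arteries ran from -0.131 to 0.030 for Mmp2, -0.283 to 0.117 for Mmp3, -0.130 to 0.267 for Mmp9, -0.141 to 0.072 for Mmp12, -0.084 to 0.011 for Mmp14 and -0.172 to 0.020 for Timp1. In non-ligated arteries it ran from -0.061 to 0.171 for Mmp13, -0.133 to 0.023 for Timp3 and -0.310 to 0.002 for Timp4, and, with its sign kept, 0.046 to 0.907 for Mmp12. The interaction ran from -0.0096 to 0.179 for Mmp2, -0.013 to 0.203 for Mmp14 and -0.029 to 0.051 for Timp2, and, with its sign kept, -0.917 to -0.056 for Mmp12.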

Other observations

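Values that the files store in the coarser steps of the highest range before centring mark genes with a bright signal. Mmp2, Mmp14, Timp1, Timp2 and Timp3 were stored in this way, as were 3568 of all genes (16.09%), and Mmp3, Mmp9, Mmp12, Mmp13 and Timp4 were not. A gene was marked only if all its values, apart from those at or next to its median, lay on these steps. A gene without the mark can still be bright on some arrays, and the marks do not rank genes.

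In Has3-deficient ligated arteries the SD of Mmp3 was 0.45, and 99.5% of all genes had a smaller one, and for Timp2 the SD was 0.028 and 9.1% had a smaller one. In wildtype ligated arteries the SD of Mmp9 was 0.55, above that of 99.6% of all genes.

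Of 30 groups of 4 arrays tested for a single outlying array among the members, Dixon's test at its 95% critical value found 0.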
